A study of Homo sapiens with 6 samples.

Results

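The genes described here are human genes that descend from the gag or the envelope gene of ancient retroelements. They were taken from the deposited table by symbol, from a list of 10 names, and 9 of them were among its 17100 transcripts. ERVW-1, which encodes the envelope protein syncytin-1, was not analysed here. The list was chosen by gene family, but it was proposed with the fold changes of the comparison of guadecitabine with vehicle already known. The differences between these groups are therefore given for the 9 genes as a description, and nothing is inferred from them.

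RNA was sequenced from MDA-MB-231 cells, an established line of hormone receptor-negative breast adenocarcinoma, with 3 libraries of vehicle-treated cells and 3 of cells exposed to 1 µM guadecitabine (SGI-110) for 96 h and then kept without drug for 24 h. Guadecitabine releases decitabine, which is built into DNA and traps DNA methyltransferases. The study describes the RNA as coming from 3 independent experiments on this 1 line. All results hold for bulk RNA, in which more cells with a transcript and more transcript per cell cannot be told apart.

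Retroelements carry gag, which encodes the capsid, pol, which encodes the enzymes, and in retroviruses env, which encodes the envelope protein that fuses membranes. During mammalian evolution single copies of these genes came to serve the host. The PNMA family descends from gag of Ty3-type elements and includes antigens of paraneoplastic neurological disease. PEG10 and LDOC1 belong to a related family, the RTL genes, and PEG10 is imprinted and needed for the placenta. Envelope genes that were kept include the syncytins of the placenta. DNA methylation is a known silencer of retroelements and of many germline genes.

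PNMA5 lies on chromosome X (RefSeq NM_001184924, minus strand, from 152157368 to 152162671 of hg19) and PNMA3 lies 62094 bp away on the plus strand (NM_013364, from 152224766 to 152228827). The 250 bases before the deposited transcript start of each gene are shown because these neighbours of 1 family differed in their levels after guadecitabine, and because CG dinucleotides are the sites that DNA methyltransferases modify. They were read from GRCh37, the same assembly as hg19, 5′ to 3′ on the strand of the gene, with each CG in capitals.

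PNMA5, chrX:152162672-152162921, minus strand: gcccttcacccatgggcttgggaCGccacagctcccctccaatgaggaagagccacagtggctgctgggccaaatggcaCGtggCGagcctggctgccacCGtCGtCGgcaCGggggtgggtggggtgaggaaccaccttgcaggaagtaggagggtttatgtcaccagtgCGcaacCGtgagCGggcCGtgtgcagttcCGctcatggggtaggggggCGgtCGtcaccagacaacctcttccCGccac

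PNMA3, chrX:152224516-152224765, plus strand: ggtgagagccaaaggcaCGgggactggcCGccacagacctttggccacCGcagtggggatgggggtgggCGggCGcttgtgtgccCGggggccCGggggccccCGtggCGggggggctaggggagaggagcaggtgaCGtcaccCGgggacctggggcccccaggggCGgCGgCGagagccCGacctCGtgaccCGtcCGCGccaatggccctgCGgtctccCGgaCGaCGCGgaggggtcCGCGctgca

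The stretch before PNMA5 held 15 CG dinucleotides, and 56.9% of the 17093 transcripts with a complete stretch held as many or more. The stretch before PNMA3 held 26, a number that 24.9% of transcripts reached. The median over all transcripts was 17. Among the other members the number was 4 for ERV3-1, 14 for ERVMER34-1, 16 for PEG10, 19 for LDOC1, 24 for PNMA1, 29 for PNMA2 and 37 for MOAP1. PNMA5, the gene whose level differed most between the groups, was thus near the middle of all transcripts in this respect. Methylation was not measured in these libraries, and transcripts of PNMA5 that start further downstream are annotated too.

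The vehicle libraries held 17602570 to 22277442 counts each, and those of guadecitabine 8792127 to 21410849, with replicate 2 the smallest. Vehicle replicate 3 stood apart, with 20 transcripts at 0 counts against 1593 to 2517 in the other 5 libraries. Among 2782 transcripts that had no more than 1 count in each of the other vehicle libraries, its median was 7.78 counts per kb of exon, here called its background. No transcript of the deposited table had fewer than 11 counts in total, so that silent transcripts with few reads in this library are missing. The background can therefore be too high, and so can the counts it would give for a gene. The cell line label was checked against marker genes. Of 5 genes listed as markers of this line, VIM had 32223 to 82480 counts, CD44 13085 to 41739, EGFR 910 to 2378, and the keratins KRT8 and KRT18, which luminal cells express too, 8244 to 26328 and 5901 to 15527. They did not move together, with log2 fold changes of 1.18 for CD44, 0.33 for VIM, 0.25 for EGFR, -0.13 for KRT18 and -0.56 for KRT8. Their summed counts, to which VIM gave the most, were 100072 to 138873 in vehicle and 64910 to 153077 after guadecitabine. The hormone receptor genes ESR1 and PGR had at most 1 count in every library but vehicle replicate 3, which had 67 and 43, and FOXA1 had at most 4 counts in the other 5 libraries. ERBB2 and GATA3 were present with at least 552 and 321 counts. The 3 markers of leukocytes, endothelium and fibroblasts summed to 187 to 516 counts in vehicle and 1182 to 2281 after guadecitabine, mainly from COL1A1, while PTPRC was at or near 0 outside vehicle replicate 3. The trophoblast markers PSG1 and GCM1 had at most 14 and 17 counts, HLA-G had 1216 to 1806 in all 6 libraries, and the part of these markers in the results was not tested.

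Levels are given as reads per kb, which are counts normalized by edgeR's TMM factors to the mean library total of 17911210 and divided by the counted exon length. Of the 9 genes, 8 passed edgeR's filter on low counts and were part of its quasi-likelihood test with Benjamini-Hochberg adjustment over 13322 genes. At an adjusted p of 0.05, 1 of the 8 genes was called higher after guadecitabine and 1 lower, whereas 19.3% of all tested genes were called higher and 18.4% lower. The groups did not overlap in 4 of the 8 genes, against 51.7% of all tested genes. The median log2 fold change was 0.18 for the 8 genes and 0.02 for all tested genes. PNMA5 passed the filter through the guadecitabine libraries, so that these numbers describe the genes tested and not all members.

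**Figure D1:**
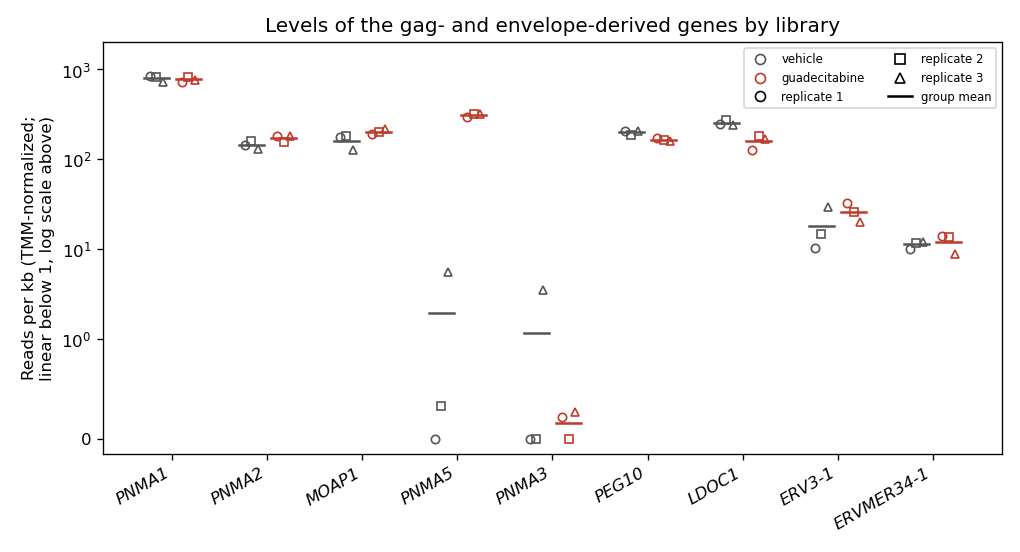
Reads per kb of the 9 genes in each library, on an axis that is linear below 1 and logarithmic above. Circles, squares and triangles are replicates 1, 2 and 3, grey is vehicle, red is guadecitabine and horizontal lines are group means. PNMA5 is near 0 in vehicle and at 295 to 321 reads per kb after guadecitabine, PNMA3 is at or below 3.50 in both groups, and the other 7 genes have log2 fold changes from -0.68 to 0.52.

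PNMA5 encodes a member of the PNMA family that is known mainly from the brain. It had 0 and 1 counts in vehicle replicates 1 and 2 and 23 in vehicle replicate 3, and 1167, 504 and 1014 counts in guadecitabine replicates 1, 2 and 3. In reads per kb these were 0, 0.330 and 5.55 in vehicle and 295, 321 and 320 after guadecitabine. The 3 guadecitabine libraries therefore lay close together and far above each vehicle library. The mean level was 1.96 ± 3.11 reads per kb in vehicle and 312 ± 14.4 after guadecitabine (SD, n = 3). The log2 fold change was 7.10 with a standard error of 0.507, the 26th highest of the 13322 genes tested. It was 10.62 without vehicle replicate 3, whose 23 counts are close to the 24.9 that its background would give over the 3199 bp counted. By level, PNMA5 stood above 1.36% of tested genes in vehicle and above 66.0% after guadecitabine. All of the 2992 stretches of 50 bases in the exons of its annotated transcript occur once in the genome. Reads of related genes that align with mismatches were not tested.

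PNMA3, the neighbour of PNMA5, encodes another protein of the family. It had 0, 0 and 17 counts in vehicle replicates 1, 2 and 3 and 1, 0 and 1 after guadecitabine. It did not pass the filter on low counts and was not tested. The 17 counts of vehicle replicate 3 were fewer than the 29.2 that its background would give over 3751 bp. After guadecitabine PNMA3 was thus at or under the floor of 3 counts in each library, where PNMA5 had at least 504. In each guadecitabine library an expression of PNMA3 below this floor was not detectable at this depth.

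PNMA1, PNMA2 and MOAP1 were expressed in both groups. PNMA1, an autoantigen of the Ma type on chromosome 14 (NM_006029, from 74178486 to 74181128, minus strand), had 854, 832 and 734 reads per kb in vehicle and 726, 825 and 769 after guadecitabine. The groups overlapped, with a log2 fold change of -0.06 (standard error 0.107), and PNMA1 had the highest level of the 9 genes in both. PNMA2, the Ma2 autoantigen whose protein can assemble into capsids, lies on chromosome 8 (NM_007257, from 26362196 to 26371483, minus strand). It had 145, 159 and 130 reads per kb in vehicle and 180, 157 and 182 after guadecitabine. Guadecitabine replicate 2 lay within the range of vehicle for this gene, and the log2 fold change was 0.27 (standard error 0.116).

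MOAP1 encodes modulator of apoptosis 1, a partner of the pro-apoptotic protein BAX, and lies on chromosome 14 (NM_022151, from 93648541 to 93651249, minus strand). It had 178, 182 and 126 reads per kb in vehicle and 190, 200 and 215 after guadecitabine. The groups did not overlap, but vehicle replicate 3 lay far below the other vehicle libraries. The log2 fold change of 0.32 (standard error 0.152) became 0.16 without it, and MOAP1 was not called with or without it. In the order of vehicle levels PNMA1 came first, then LDOC1, PEG10, MOAP1 and PNMA2, then ERV3-1 and ERVMER34-1, and last PNMA5 and PNMA3. The ranges of MOAP1 and PNMA2 in vehicle overlapped, as did those of ERV3-1 and ERVMER34-1 and those of PNMA5 and PNMA3. After guadecitabine PNMA5 came second and MOAP1 next, and the ranges of PNMA2, PEG10 and LDOC1 overlapped.

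PEG10 and LDOC1, the RTL members, had lower mean levels after guadecitabine, as PNMA1 had. PEG10 encodes a gag-like protein and, by a shift of the reading frame, a longer gag-pol protein, and is expressed from the paternal allele. It lies on chromosome 7 (NM_001040152, from 94285637 to 94299006, plus strand). It had 208, 187 and 206 reads per kb in vehicle and 174, 165 and 159 after guadecitabine. Each guadecitabine library lay below each vehicle library, with a log2 fold change of -0.27 (standard error 0.102) that did not pass the threshold. Of the alternatives, DESeq2, the fit without guadecitabine replicate 1 and the subtraction of the background of vehicle replicate 3 called it lower, with log2 fold changes of -0.28, -0.31 and -0.29.

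LDOC1 encodes a small leucine zipper protein with a gag-like part and lies on chromosome X (NM_012317, from 140269931 to 140271399, minus strand). It had 247, 271 and 242 reads per kb in vehicle and 127, 183 and 168 after guadecitabine. The guadecitabine libraries were again all lower, and replicate 1 was the lowest of them. The means were 253 ± 15.4 and 159 ± 29.02 reads per kb (SD, n = 3), a level 1.61-fold lower after guadecitabine (log2 fold change -0.68, standard error 0.153). LDOC1 was the gene called lower among the 8. Leaving out single libraries gave log2 fold changes from -0.78 to -0.54.

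The envelope members were expressed at low levels. ERV3-1 encodes the envelope protein of the HERV-R provirus on chromosome 7 (NM_001007253, from 64450733 to 64467124, minus strand). It had 28, 36 and 99 counts in vehicle and 104, 33 and 51 after guadecitabine, or 10.3, 14.7 and 29.6 and 32.6, 26.0 and 19.9 reads per kb. The groups overlapped only because of vehicle replicate 3, whose background would give 20.1 of its 99 counts. The log2 fold change was 0.52 (standard error 0.424) and was not called. Without vehicle replicate 3 it was 1.08 and called, and with the background subtracted it was 0.63 and not called, so that 1 library decides this value. The last 682 bp of ERV3-1 overlap the zinc finger gene ZNF117 on the same strand, and reads there cannot be assigned to one of them.

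ERVMER34-1 encodes the envelope protein HEMO, which is known from stem cells and placenta, and lies on chromosome 4 (NM_001242690, from 53609684 to 53617807, minus strand). It had 30, 32 and 45 counts in vehicle and 49, 19 and 25 after guadecitabine, or 9.97, 11.8 and 12.1 and 13.8, 13.5 and 8.81 reads per kb. The groups overlapped. The log2 fold change was 0.09 with a standard error of 0.400, so that at this depth a moderate change in either direction was not detectable, and the background of vehicle replicate 3 would give 22.3 of its 45 counts. Of the stretches of 50 bases in the exons of an annotated transcript, 100% occurred once in the genome for ERVMER34-1 and 99.2% for ERV3-1, although the transcript used for ERV3-1 was longer than the counted one, with 3206 bp against 2584 bp.

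Further genes derived from retroelements were looked up from a list of 53 symbols, of which 23 were in the table and 14 were tested. Of these, 1 was higher and 6 were lower after guadecitabine at an adjusted p of 0.05, where 37.7% of all tested genes were called in either direction. The gene called higher, ARC, passed the filter on low counts through the guadecitabine libraries. Of the genes called lower, KRBA2 and ZCCHC5 passed it through the vehicle libraries. The median log2 fold change of the 14 genes was -0.42, against 0.02 for all tested genes. When single libraries were left out, the number called lower was between 3 and 7 and the number called higher 0 or 1. The number called lower was 3 without vehicle replicates 1 or 2 or guadecitabine replicates 1 or 3, and none was called higher without guadecitabine replicates 2 or 3.

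Of these 14 genes, 8 are RTL genes, the family of PEG10 and LDOC1, and 5 of the 8 fell, while 0 rose, beside 18.4% lower and 19.3% higher of all tested genes. The list was divided by family after the values were seen, so that this count is a description and shows no trend of the family. The 5 genes were ZCCHC5, LDOC1L and the neighbouring copies FAM127A, FAM127B and FAM127C, which are the RTL8 genes on chromosome X. FAM127C had 639, 653 and 625 reads per kb in vehicle and 319, 361 and 382 after guadecitabine. It was 1.81-fold lower (log2 fold change -0.85 with a standard error of 0.107, adjusted p = 0.000317, edgeR), with all 3 guadecitabine libraries far below vehicle.

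FAM127B fell from 2207 ± 325 to 1436 ± 182 reads per kb (SD, n = 3), with a log2 fold change of -0.62 (adjusted p = 0.00826, edgeR). FAM127A fell from 2675 ± 94.9 to 2080 ± 201 reads per kb, with a log2 fold change of -0.36 (adjusted p = 0.0248, edgeR), and its call was lost without vehicle replicates 1 or 2 or guadecitabine replicates 1 or 3. The 3 copies were each lower in every guadecitabine library than in every vehicle library. Of the stretches of 50 bases in their exons 90.7% to 94.7% were unique, so that a part of their reads can be shared. LDOC1L, or RTL6, named after its values were seen, fell from 164 ± 23.8 to 100 ± 7.14 reads per kb, a log2 fold change of -0.70 (adjusted p = 0.00294, edgeR).

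ZCCHC5, or RTL3, had low counts of 27, 19 and 51 in vehicle and 12, 5 and 8 after guadecitabine. In reads per kb these were 9.71, 7.58 and 14.9 and 3.67, 3.84 and 3.05. The background of vehicle replicate 3 would give 20.6 of the 51 counts there. The log2 fold change of -1.61 (adjusted p = 0.0400, edgeR) lost the call without any single library other than vehicle replicate 3, with adjusted p up to 0.161. With that background subtracted it was -1.34. ZCCHC5 passed the filter on low counts through the vehicle libraries, so that its adjusted p is no evidence of a fall. The RTL genes that did not pass the test were RGAG4, at a log2 fold change of 0.07, C22orf29, at -0.08, and RGAG1, at -0.36, and RTL1 was not tested. RTL1 is imprinted like PEG10 and had at most 1 count in every library but vehicle replicate 3.

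Outside the RTL family, ARC and KRBA2 were called. ARC, a gag-derived gene of neurons whose protein forms capsids, had 6, 7 and 24 counts in vehicle and 43, 33 and 56 after guadecitabine. The groups did not overlap, and the log2 fold change was 2.27 (standard error 0.573, adjusted p = 0.0131, edgeR). ARC passed the filter on low counts through the guadecitabine libraries, so that its adjusted p is no evidence of a rise. The background of vehicle replicate 3 would give 22.9 of its 24 counts, and the log2 fold change was 2.94 without that library and 3.50 with the background subtracted. The call was lost without guadecitabine replicate 2 (adjusted p = 0.0515) and without guadecitabine replicate 3 (adjusted p = 0.0672). KRBA2, which carries an integrase-like part, had 21.7 ± 2.68 reads per kb in vehicle and 7.06 ± 4.66 after guadecitabine (log2 fold change -1.71, adjusted p = 0.0341, edgeR). KRBA2 passed the filter on low counts through the vehicle libraries, so that its adjusted p is no evidence of a fall. Its call was lost without vehicle replicates 1 or 2 or guadecitabine replicates 1 or 3, with adjusted p between 0.0765 and 0.151, and its log2 fold change was -2.30 without guadecitabine replicate 2.

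The 3 other genes tested that are related to PNMA did not pass the test. They were PNMAL1 at a log2 fold change of -0.19, CCDC8 at -0.48 and ZCCHC18 at -0.66. The envelope genes ERVFRD-1, ERVV-1 and ERVV-2 had 0 to 6 counts in the 5 libraries other than vehicle replicate 3, which had 14 to 24, and none was tested. ERVFRD-1 encodes syncytin-2. It had 2, 3 and 0 counts after guadecitabine, and 53.2% and 61.2% of the stretches of 50 bases in ERVV-1 and ERVV-2 were unique. Of the 23 genes, 9 were not tested, and these had at most 11 counts in any library but vehicle replicate 3.

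**Figure D2:**
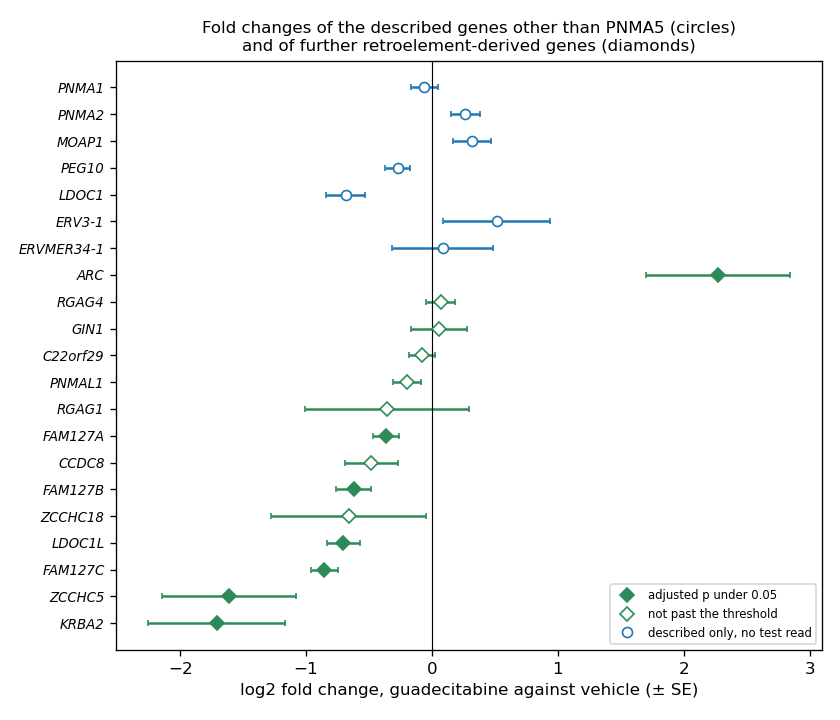
Log2 fold change of guadecitabine against vehicle with its standard error from edgeR. Blue circles are 7 of the genes described, without PNMA5 at 7.10, and green diamonds are the 14 further genes tested, filled where the adjusted p was under 0.05. LDOC1 at -0.68 lies beside FAM127B at -0.62 and LDOC1L at -0.70, and ARC at 2.27 stands alone on the right.

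The genes next to each member were then examined, since neighbours can share a promoter or a chromatin domain. The nearest tested genes on both sides of the members were 16 genes, of which 1 was higher and 5 were lower after guadecitabine, against 37.7% of all tested genes called in either direction. Their median log2 fold change was 0.11. PEG10 shares its start region with SGCE, a paternally expressed sarcoglycan gene 115 bp away on the other strand. SGCE fell from 513 ± 28.2 to 403 ± 47.1 reads per kb (log2 fold change -0.34, adjusted p = 0.0443, edgeR), beside -0.27 for PEG10. The SGCE call was lost without any single library except guadecitabine replicate 1, with adjusted p up to 0.120.

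MOAP1 starts 46 bp from TMEM251 on the other strand. TMEM251 had 324, 326 and 243 reads per kb in vehicle and 440, 459 and 414 after guadecitabine, and it rose with a log2 fold change of 0.56 (adjusted p = 0.0138, edgeR), beside 0.32 for MOAP1. In both genes vehicle replicate 3 was the lowest library. PNMA2 starts 225 bp from DPYSL2, a gene of axon guidance on the other strand. DPYSL2 had 1195, 1121 and 1139 reads per kb in vehicle and 498, 471 and 469 after guadecitabine, a log2 fold change of -1.26 (adjusted p = 1.52e-05, edgeR), beside 0.27 for PNMA2. These genes that start next to each other thus had values of opposite sign, and the difference between them was not tested. BNIP3L, a mitophagy receptor on the far side of PNMA2, fell too, with a log2 fold change of -0.73 (adjusted p = 0.000862, edgeR).

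ELMSAN1 next to PNMA1 fell by 0.44 on the log2 scale (adjusted p = 0.00772, edgeR), and DNAL1 on the other side had 0.11. ZNF117, which overlaps ERV3-1, had 11, 14 and 60 counts in vehicle and 62, 8 and 26 after guadecitabine, with a log2 fold change of 0.39 that was not called. Without vehicle replicate 3 it was 1.40 and called (adjusted p = 0.0366, edgeR), so that the value of ZNF117 hangs on the same library as that of ERV3-1. With the background of that library subtracted, ZNF117 was at 1.35 and called (adjusted p = 0.0447, edgeR), while ERV3-1 was not called. That background would give 44.5 of the 60 counts of ZNF117 there. The germline gene MAGEC1, 720242 bp from LDOC1, did not pass the test at a log2 fold change of 0.95 (adjusted p = 0.0556, edgeR), beside -0.68 for LDOC1. Without vehicle replicate 3 it was 1.17 and called (adjusted p = 0.00671, edgeR). MAGEC1 was also called by DESeq2 (0.94), without a filter (0.97), with at least 10 counts in every library (0.95) and with the background subtracted (1.34). Under the other alternatives it was not called. The other 7 neighbours, from PPP1R9A at -0.88 to RASL11B at 0.30, were not called. PPP1R9A was at -0.030 with the background of vehicle replicate 3 subtracted, which takes 81.8 of its 87 counts there. The other vehicle libraries had 44 and 34 counts of PPP1R9A, so that this subtraction can be too large.

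PNMA5 and PNMA3 lie among the MAGE-A genes of the long arm of chromosome X, and the transcripts within 500000 bp were listed, a window chosen after the values were seen. There were 13 such transcripts, of which 11 were tested, and 6 of these were called higher, PNMA5 included, and 1 lower. Of the 485 tested genes of chromosome X 21.24% were called higher and 20.21% lower, beside 19.3% and 18.4% of all tested genes, and nothing is read from the count in a window chosen in this way. MAGEA3, MAGEA6, MAGEA12 and CSAG1, which are germline genes known to be methylated in somatic cells, start between -295 and -224 kb from the PNMA5 start, on the side of lower coordinates. They had at most 17 counts in each vehicle library and 15 to 129 after guadecitabine, and their log2 fold changes of 3.88, 2.69, 4.99 and 5.00 are given as a description. All 4 passed the filter on low counts through the guadecitabine libraries. In vehicle MAGEA3 had 10, 6 and 11 counts, MAGEA6 4, 3 and 17, MAGEA12 2, 0 and 5, and CSAG1 1, 2 and 1. MAGEA3 and MAGEA6 are near-identical copies whose reads can be shared. Between these genes and PNMA5 lie CETN2, NSDHL and ZNF185. ZNF185, 15342 bp from PNMA5, fell from 903 ± 47.5 to 603 ± 25.7 reads per kb (log2 fold change -0.58, adjusted p = 0.00161, edgeR), while CETN2 and NSDHL had -0.27 and -0.30 and were not called. After guadecitabine PNMA5, at 312 reads per kb, was above MAGEA3, the highest of the 4 germline genes, at 71.0. HAUS7, the last transcript in the window, had a log2 fold change of 0.37.

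**Figure D3:**
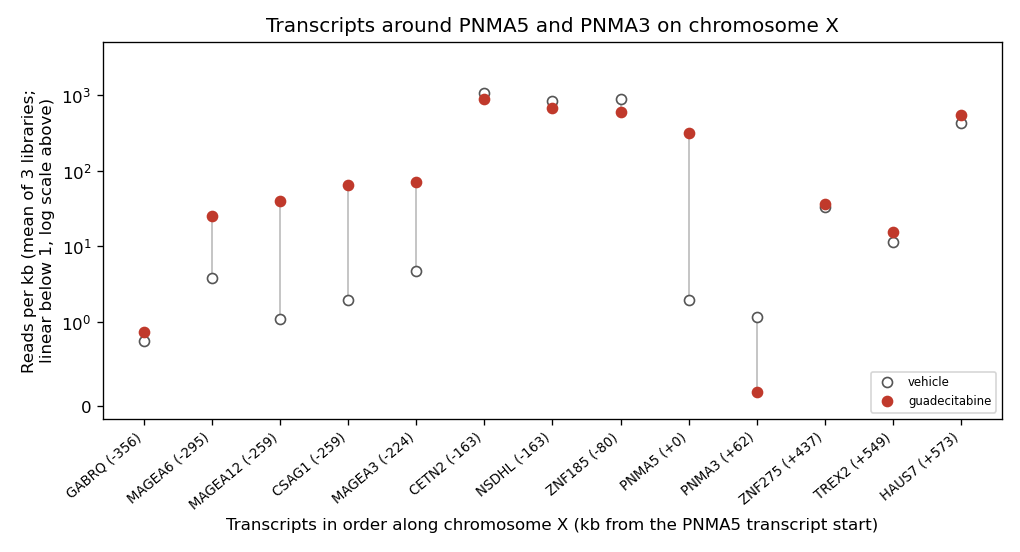
Mean reads per kb in vehicle (open grey) and after guadecitabine (red) of the 13 transcripts within 500000 bp of PNMA5 and PNMA3, in their order along chromosome X with the distance from the PNMA5 start in kb, on an axis that is linear below 1 and logarithmic above. PNMA5 goes from 1.96 to 312 and the 4 germline genes on the left from 1.11 to 4.71 to between 25.6 and 71.0, with the expressed genes CETN2, NSDHL and ZNF185 between them, while PNMA3 stays near 0.

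Genes that silence or restrict retroelements, here called silencing genes, were read from a list of 25, with 24 in the table and tested. Of these 2 were higher and 10 lower after guadecitabine (edgeR, adjusted p of 0.05), beside 19.3% higher and 18.4% lower of all tested genes. Their median log2 fold change was -0.16, against 0.02 for all tested genes. The list also holds genes that act on RNA or DNA products and not on chromatin, such as ZC3HAV1 and ADAR. The numbers called are therefore not of silencing genes alone. SUV39H1, a methyltransferase of histone H3 lysine 9, had 517, 566 and 423 reads per kb in vehicle and 205, 272 and 251 after guadecitabine. It fell with a log2 fold change of -1.05 (adjusted p = 0.000625, edgeR), and the groups were far apart. TRIM28, the corepressor that zinc finger proteins bring to retroelements, fell from 4225 ± 487 to 3144 ± 332 reads per kb (log2 fold change -0.43, adjusted p = 0.0218, edgeR), and its call was lost without vehicle replicates 1 or 2 or guadecitabine replicates 1 or 3. EHMT2, another such methyltransferase, named after its values were seen, fell from 702 ± 62.4 to 390 ± 18.0 reads per kb (log2 fold change -0.85, adjusted p = 0.000334, edgeR).

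The 2 genes that rose, named after their values were seen, were ZC3HAV1, an antiviral RNA-binding protein, and HELLS, a chromatin remodeller. ZC3HAV1 went from 173 ± 18.5 to 313 ± 30.1 reads per kb (log2 fold change 0.86, adjusted p = 0.000654, edgeR) and HELLS from 112 ± 3.50 to 164 ± 31.9 (log2 fold change 0.56, adjusted p = 0.0144, edgeR), with the HELLS call lost without vehicle replicate 1. The heterochromatin protein gene CBX3 and the RNA-editing enzyme gene ADAR had log2 fold changes of 0.24 and 0.07 and did not pass the test. When single libraries were left out, 4 to 9 of the 24 genes were called lower and 1 to 3 higher. The lowest number called lower was that without vehicle replicate 2, and 5 were called without vehicle replicate 1 or guadecitabine replicate 3.

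The receptors of the syncytins were expressed. Of 4 genes listed as receptors or regulators of syncytins, 3 were tested. Of these, 2 were called higher and 1 lower, beside 19.3% higher and 18.4% lower of all tested genes. MFSD2A, the receptor of syncytin-2, had 96.3, 98.0 and 105 reads per kb in vehicle and 150, 185 and 166 after guadecitabine, and it rose with a log2 fold change of 0.74 (adjusted p = 0.00215, edgeR). SLC1A5, the amino acid transporter that is a receptor of syncytin-1, went from 1802 ± 165 to 2443 ± 460 reads per kb (log2 fold change 0.44, adjusted p = 0.0389, edgeR). SLC1A4, its relative, fell from 76.0 ± 8.14 to 56.5 ± 3.52 (log2 fold change -0.44, adjusted p = 0.0327, edgeR). The SLC1A5 call was lost without any single library other than guadecitabine replicate 1 and the SLC1A4 call without vehicle replicates 1 or 3 or guadecitabine replicates 1 or 3. GCM1, the trophoblast factor that drives the syncytins, had 0, 1 and 17 counts in vehicle and 0 in each guadecitabine library, and was not tested. The 17 counts were in vehicle replicate 3, whose background would give 21.5.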

How the data were processed

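STAR 2.3.1z (hg19) was the aligner the authors used, and they deposited whole-number counts of reads in exons per RefSeq transcript, made with iRNA-seq. They also deposited the counted exon length and rlog values of DESeq2, which are on a log2 scale and were not used, nor were the fold changes and p-values of their own comparison. How long the reads were and what was done with multiply matching reads is not given in the sources used here. Libraries were assigned to groups by their titles.

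Counts were tested across all genes with edgeR 4.0.16 in R 4.3.3 (TMM, filterByExpr with a minimum count of 10, quasi-likelihood test, Benjamini-Hochberg adjustment, threshold 0.05), without a replicate term. Standard errors are the log2 fold change over the root of F. Simulated data with known changes were used to test the fit. Alternatives were the Wald test of DESeq2 1.42.0, its size factors in edgeR, library totals only, other filters on low counts, a replicate block and each library left out. The detection floor of 3 counts covers counting error only. No 2 libraries held the same counts. Deposited starts were shifted by 1 base to a 1-based scale.

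Upstream stretches and stretches of 50 bases came from GRCh37, with exons from GENCODE release 44, in Python 3.11.15. Each CG was searched as the letters CG, which read the same on both strands. Protein features were not analysed here.

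The members and lists were chosen with earlier results of these data known. The text names the members, the list genes past the threshold with an absolute log2 fold change of at least 1, 3 others of each list by mean count, the nearest tested neighbours, and genes said to be named after their values were seen. Also named, outside these rules, are further genes of the retroelement list by family, GCM1 and transcripts of the window around PNMA5. The families and the window were chosen after the values were seen.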

Additional observations from a re-analysis of the deposited data

How the results depend on the processing

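Of 527 fold changes of named genes under an alternative, 466 kept their direction and side of the threshold, 47 lost a call, 11 gained one and 3 changed sign, none of which was called. The sign changed for ERVMER34-1 without guadecitabine replicate 1 (log2 fold change -0.034, up to 0.27 without other libraries), for RASL11B without vehicle replicate 1 (-0.052, up to 0.59) and for ZNF117 without guadecitabine replicate 1 (-0.16, up to 1.40). The cause of these changes was not tested, except where an alternative leaves out genes.

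The groups share replicate numbers. The deviations from the group mean of 2 libraries with 1 number correlated at -0.050, 0.049 and -0.037. Those of libraries with different numbers correlated at -0.061 to 0.063. Such deviations sum to 0 within a group, so that these values cannot decide whether libraries with 1 number came from 1 experiment. With the replicate number as a block, 2424 genes were higher and 2230 lower, and of the envelope receptor genes 0 were lower. It called 5 of the further retroelement genes and 8 of the silencing genes lower. DESeq2 called 2 of the described genes lower and 2 neighbours higher, beside 2716 higher and 2615 lower of all genes. With library totals only, 0 receptor genes were lower, beside 2757 higher and 2232 lower of all genes. Without a filter, 3 further retroelement genes and 6 silencing genes were lower, and 1 receptor gene and 2 neighbours were higher. Of all genes 2332 were then higher and 2040 lower. With at least 10 counts in every library, the called genes PNMA5, ARC, KRBA2 and ZCCHC5 were removed. That left 0 of the described and 0 of the further retroelement genes higher and 4 of the further retroelement genes lower, and 2 neighbours were higher. This filter gave 2417 higher and 2383 lower of all genes kept. With the background of vehicle replicate 3 subtracted, chosen after seeing the data, 2 of the described genes were lower and 3 neighbours higher. That setting gave 2951 higher and 2619 lower of all genes.

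Leaving out single libraries, the genes higher were 1706 to 3002 of all tested genes, 1 to 2 of the described genes, 0 to 1 of the further retroelement genes, 1 to 3 of the silencing genes, 1 to 2 of the receptor genes and 1 to 3 of the neighbours. The genes lower were 1629 to 2575, 1 to 2, 3 to 7, 4 to 9, 0 to 1 and 4 to 5. In 1 group with 2 libraries the spread is shared with the other group. The lowest counts over all tested genes were those without guadecitabine replicate 3. Levels per kb moved by less than 1 SD under library totals only. Depth limits the low genes, in which counts of 0 to 3 are at the floor.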
